A study of Mus musculus with 4 samples.

Results

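The genes described are 10 inflammatory mediators of mouse liver: the interleukin-1 family genes Il1a, Il1b, Il1rn and Il18, the cytokines Tnf, Il6, Osm, Il10 and Tgfb1, and the prostaglandin enzyme Ptgs2. They were taken by gene symbol, and all 10 of 10 were found among the 31053 genes of the count matrices. Each was followed over single liver cells of 4 libraries, in barcodes with at least 300 genes, at least 500 UMIs (unique molecular identifiers, 1 per captured transcript molecule) and at most 30% mitochondrial UMIs.

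Interleukin-1 alpha and beta are made as precursors and act through the same receptor, Il1r1, and the antagonist encoded by Il1rn binds that receptor without activating it. The inflammasome, a complex with caspase-1, cuts the precursors of interleukin-1 beta and interleukin-18 to their active forms, so transcript levels do not show how much active cytokine is present. In the liver these genes are known from Kupffer cells (the resident macrophages), from incoming monocytes and neutrophils, and from lymphocytes, and the products of Il10 and Tgfb1 are known to restrain inflammation, the latter also as a driver of fibrosis.

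The study profiled C57BL/6 mouse liver on the way from obesity to liver cancer, with 1 library for each of 4 groups, named here control, low-AFP, high-AFP and HCC after the titles. AFP is alpha-fetoprotein, and HCC is hepatocellular carcinoma. The control library is titled as control diet and the low-AFP library as CD-HFD, while the high-AFP library is titled as control diet and its files are named CD-HFD, so its diet is not settled by the labels. The HCC library was a suspension from a tumour region, and its title names no diet. All 4 titles say 15 months while the age entry says 17, and neither the number nor the sex of the animals behind a library is used here. All were perfused with collagenase. The parenchymal cells passed a 30% Percoll gradient, the other cells were sorted as live, and the fractions were mixed 1:1, so class sizes partly reflect the preparation.

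With 1 library per group there are no replicates, so no test was made and every difference below describes these libraries. Levels are UMIs per 1000000 nuclear-encoded UMIs (CPM) of a class in a library. A run of 4 values without names is in the order control, low-AFP, high-AFP, HCC. Their brackets are exact 95% Poisson intervals, and brackets after shares of cells are exact Clopper-Pearson intervals. Both cover counting error only.

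The matrices held 8929 to 11539 barcodes and 65326793 to 97393862 UMIs per library, and 6036 cells (control), 5129 (low-AFP), 7902 (high-AFP) and 7491 (HCC) were kept after the doublet step. The mitochondrial limit removed 42.7%, 42.0%, 26.5% and 8.19% of barcodes in that order. The kept cells had median UMI counts of 4686 to 7395, and pairs of libraries shared 3 to 29 barcode sequences. Cells were clustered without the 10 genes and their pathway genes and named by marker lists, so each class means cells resembling that type (neutrophil-like, macrophage-like and so on). Of the 18 classes, 16 had every marker of their list at least 2-fold above other cells, the monocyte class had 7 of 8 and the plasma class 6 of 7. Hepatocytes held 63.3% to 63.7% of nuclear UMIs in the control, low-AFP and high-AFP libraries and 8.52% in HCC, where T cells held 22.0% and monocytes 20.02%. Cells left unnamed held 9.11% in HCC. They included clusters 23 (329 HCC cells) and 35 (65 HCC cells), whose closest class by markers was hepatocyte and which are not in the hepatocyte values below. Summed hepatocyte markers in T cells, which should lack them, were 10640, 6569, 6754 and 1046 CPM in the 4 libraries, lowest in HCC.

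The 250 bases before the RefSeq start of 4 of the genes are shown because the source classes described here turn on them: Il1b and Ptgs2 in neutrophils, Il1a in endothelial cells and macrophages, and Tnf in both myeloid and T cells. Sequence and coordinates are from RefSeq (GRCm38.p6), 5′ to 3′ on the strand of the gene. They are Il1b (ENSMUSG00000027398) at chr2:129371140-129371389 on the minus strand, Il1a (ENSMUSG00000027399) at chr2:129309973-129310222 on the minus strand, Tnf (ENSMUSG00000024401) at chr17:35202008-35202257 on the minus strand, and Ptgs2 (ENSMUSG00000032487) at chr1:150099781-150100030 on the plus strand. Capitals mark matches to 4 searched motifs.
Il1b: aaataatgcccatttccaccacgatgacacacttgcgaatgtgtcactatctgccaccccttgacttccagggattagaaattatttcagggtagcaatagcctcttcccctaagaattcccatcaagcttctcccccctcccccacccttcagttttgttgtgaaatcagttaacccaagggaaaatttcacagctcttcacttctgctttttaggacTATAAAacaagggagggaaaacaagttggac
Il1a: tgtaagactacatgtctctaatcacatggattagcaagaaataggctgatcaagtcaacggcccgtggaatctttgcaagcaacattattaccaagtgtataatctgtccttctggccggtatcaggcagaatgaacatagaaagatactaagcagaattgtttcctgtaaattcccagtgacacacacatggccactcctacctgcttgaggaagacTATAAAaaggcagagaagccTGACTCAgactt
Tnf: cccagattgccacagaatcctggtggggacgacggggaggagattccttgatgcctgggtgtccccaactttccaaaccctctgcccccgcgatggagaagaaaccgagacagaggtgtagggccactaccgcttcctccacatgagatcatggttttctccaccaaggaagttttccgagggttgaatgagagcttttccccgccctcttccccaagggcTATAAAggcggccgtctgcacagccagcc
Ptgs2: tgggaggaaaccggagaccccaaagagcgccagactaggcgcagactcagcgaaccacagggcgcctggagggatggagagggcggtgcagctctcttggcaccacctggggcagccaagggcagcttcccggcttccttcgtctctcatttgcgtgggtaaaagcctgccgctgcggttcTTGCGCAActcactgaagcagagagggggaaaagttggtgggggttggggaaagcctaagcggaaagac

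The motifs, searched on both strands, were the TATA box TATAAA, the AP-1 site TGANTCA, the C/EBP site TTGCNNAA and the kappaB motif. They occur in 12.97%, 6.87%, 9.55% and 7.01% of 27025 mouse promoters of this length. Il1b, Il1a and Tnf each have a TATA box, 31 to 26, 32 to 27 and 29 to 24 bases upstream of the start. Il1a also has an AP-1 match 12 to 6 bases upstream, and Ptgs2 has a C/EBP match 69 to 62 bases upstream. Of the 8 genes matched in the RefSeq table, Il6 held AP-1, C/EBP and kappaB matches, Tgfb1 a kappaB match, Il1rn an AP-1 match in 1 of its 3 starts and Il18 a TATAAA match on the opposite strand. A match describes these letters only, and the libraries hold no measurement of factor binding.

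**Figure D1:**
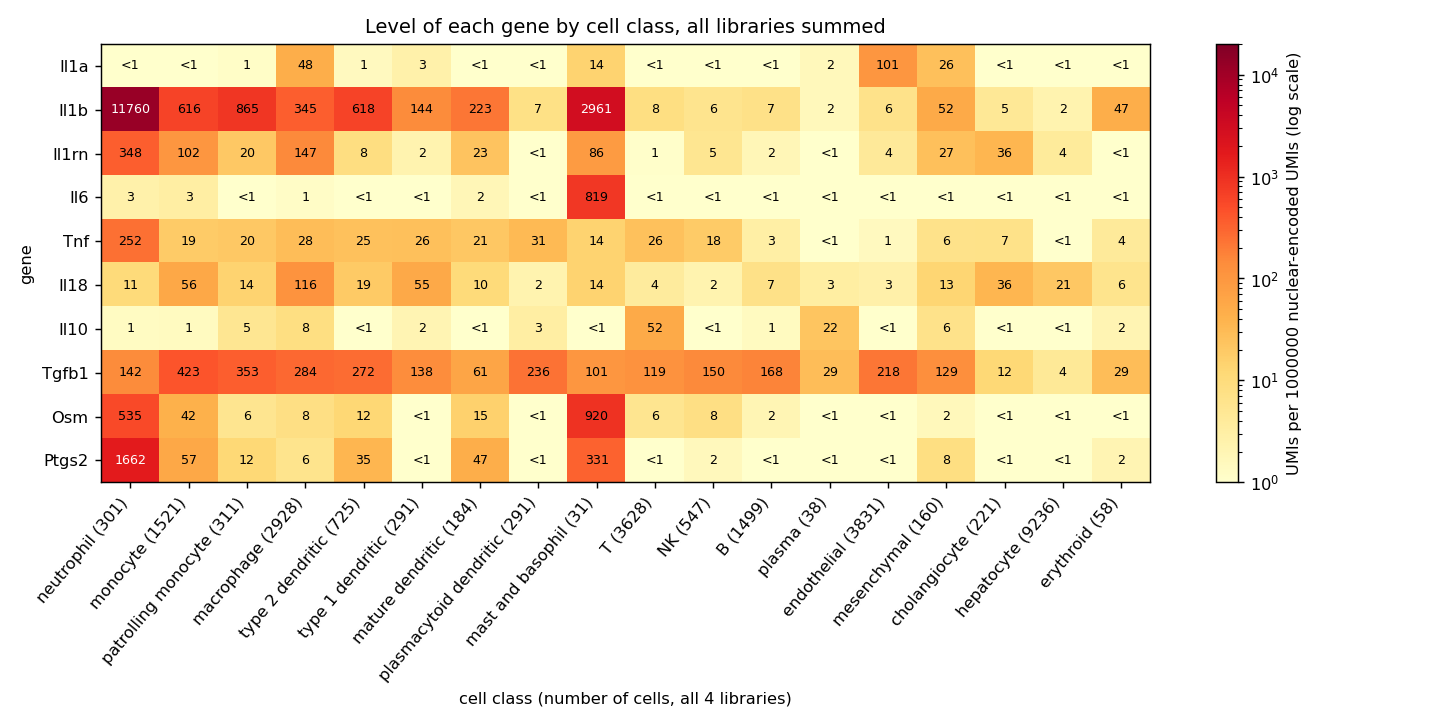
Level of each of the 10 genes (rows) in each cell class (columns, with the number of cells over all 4 libraries), in UMIs per 1000000 nuclear-encoded UMIs, coloured on a log scale. Il1b is highest in neutrophils at 11760 CPM, Il1a in endothelial cells and macrophages, Il10 in T cells, and Tgfb1 is spread over most immune classes and endothelial cells.

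Il1b, the precursor of the main secreted interleukin-1, was the most abundant of the 10, with 35760 UMIs. Over whole libraries it stood at 67.1 CPM for control, 99.2 for low-AFP, 73.2 for high-AFP and 445 for HCC. Neutrophils had the highest level of the classes over all libraries, 11760 CPM, and the mast and basophil class was next at 2961 CPM in 31 cells. Patrolling monocytes (865 CPM), type 2 dendritic cells (618), monocytes (616) and macrophages (345) followed. T cells (8.28 CPM) and hepatocytes (2.33 CPM) were near the low end.

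In neutrophils Il1b was 6045 CPM (5496 to 6635) for control, 7754 (7213 to 8325) for low-AFP, 6702 (6099 to 7349) for high-AFP and 13970 (13650 to 14300) for HCC. The HCC interval lies above the other 3, and that of low-AFP lies above that of control and meets that of high-AFP. A median neutrophil held 10, 14, 10 and 37 Il1b UMIs of 2106, 2218, 1889 and 2721 UMIs in all. The first 3 libraries had only 37, 42 and 35 neutrophils, under the minimum of 50 used for folds, against 187 in HCC, so the values are set side by side with no fold. With every cell thinned to 1000 UMIs, 97.3%, 95.2%, 97.1% and 98.4% of neutrophils had an Il1b UMI (100%, 100%, 97.1% and 100% unthinned, none left out), against 0.151% to 0.946% of thinned hepatocytes.

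The neutrophils of HCC fell in other clusters than those of the rest. Cluster 22 held 91.9%, 88.1% and 97.1% of the neutrophils of control, low-AFP and high-AFP and 0.535% of those of HCC, which lay in clusters 39, 40 and 42. Summed hepatocyte markers in neutrophils were 19430, 11340 and 14720 CPM outside HCC and 1209 CPM in HCC, with 10 of 10 markers detected in each, and their part in the neutrophil levels was not tested. The summed levels of a dissociation and immediate early gene list in neutrophils were 12080, 12900, 11450 and 34760 CPM, also highest in HCC, and its part was not tested either.

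In macrophages Il1b was 650 CPM for control and lower in the other 3 libraries, at 338 for low-AFP, 281 for high-AFP and 336 for HCC. The control interval (618 to 683) does not meet those of the others. The log2 fold of high-AFP against control was -1.18. The summed dissociation and immediate early genes in macrophages were 7217, 4406, 3942 and 6263 CPM, also highest in control and lowest in high-AFP. Their part in the Il1b levels was not tested. The share of thinned macrophages with an Il1b UMI was 35.1% (30.6 to 39.7), 19.9% (17.0 to 23.2), 17.0% (14.9 to 19.4) and 17.7% (14.03 to 21.9), leaving out 92, 49, 95 and 87 shallower cells. Unthinned, 49.2%, 49.6%, 45.7% and 35.2% of all macrophages had one.

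Monocytes had Il1b at 826 CPM for control, 642 for low-AFP, 421 for high-AFP and 644 for HCC, lowest in high-AFP. A single control monocyte held 130 of the 425 Il1b UMIs of its class. Type 2 dendritic cells, which present antigen to helper T cells, had 459, 541, 245 and 772 CPM, with HCC highest and high-AFP lowest. Type 1 dendritic cells, which present antigen to cytotoxic T cells, had 129, 44.9, 86.0 and 254 CPM, again highest in HCC. Summed neutrophil markers in type 2 dendritic cells were 21.3 to 37.9 CPM in all 4 libraries, with 3 to 7 of 8 markers detected, and their part in the Il1b levels was not tested.

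Hepatocytes held 1.06, 1.84, 1.63 and 22.7 CPM of Il1b. The neutrophil genes S100a8 (0.886, 2.39, 0.703 and 41.9 CPM) and S100a9 (1.24, 1.81, 0.922 and 59.6 CPM) had the same order of magnitude there and were also highest in HCC. T cells likewise had 10.4 CPM of Il1b in HCC against 2.18 to 4.34 CPM elsewhere, and 13.5 CPM of S100a8 against 0 to 0.727 CPM. The part of free neutrophil RNA in these low levels was not tested.

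**Figure D2:**
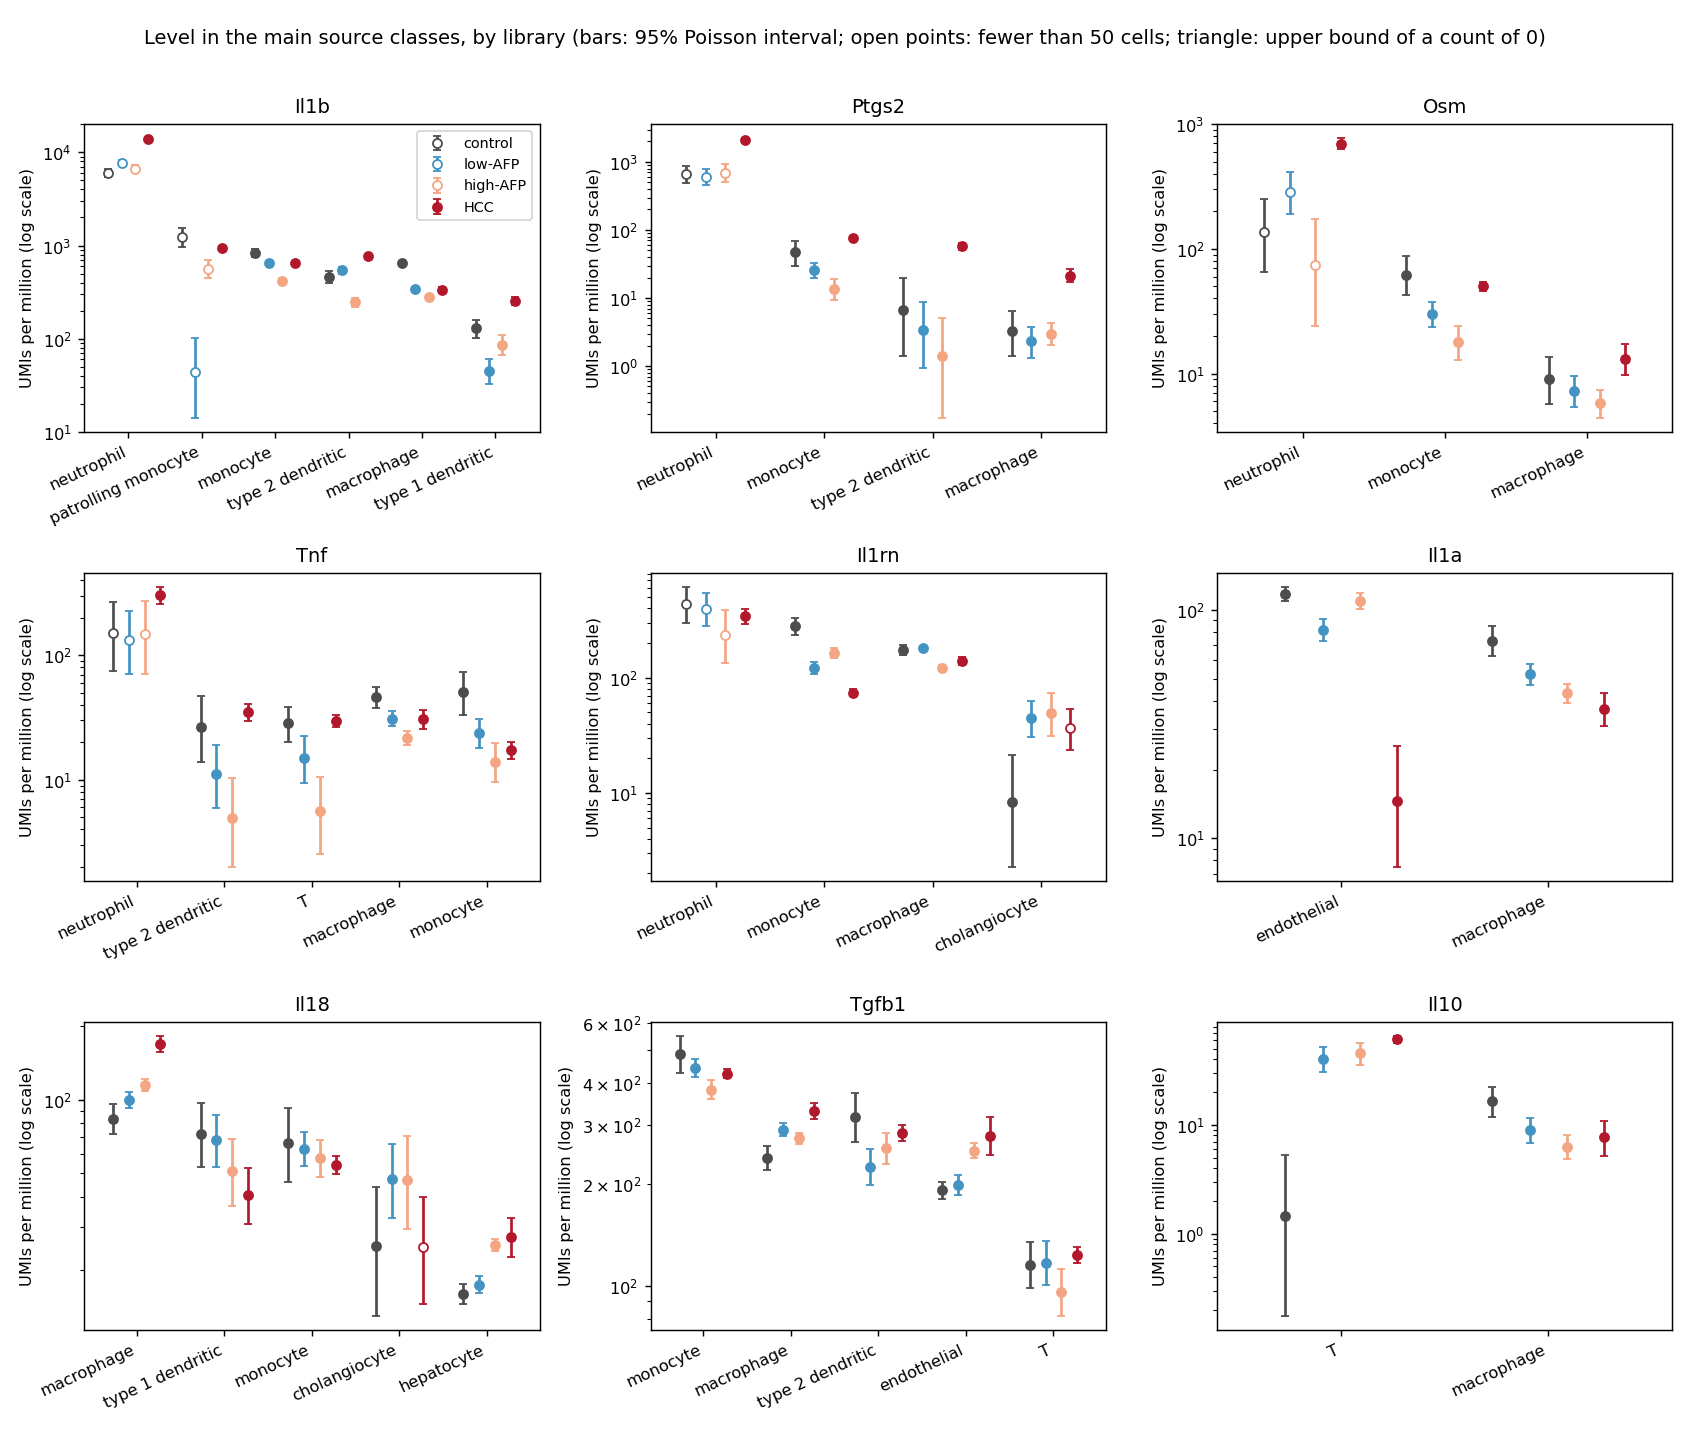
Level of 9 genes in their main source classes (x axis) in each library, in UMIs per 1000000 nuclear-encoded UMIs on a log scale, with 95% Poisson intervals. Open points mark a class with fewer than 50 cells in that library. Ptgs2 is highest in HCC in all 4 classes drawn, while Il1a in endothelial cells and Il1rn in monocytes are lowest in HCC.

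Il1a, which encodes interleukin-1 alpha, an alarm signal released from damaged cells, had 3020 UMIs. Its level over whole libraries was 22.2 CPM for control, 12.7 for low-AFP, 15.7 for high-AFP and 3.57 for HCC. Unlike Il1b it was at 0 UMIs in neutrophils of all 4 libraries, which allows up to 40.8 CPM in control and 5.75 CPM in HCC (the limit that a count of 0 allows, 3 counts). Endothelial cells and macrophages held most of it.

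Endothelial Il1a was 117 CPM (109 to 126) for control, 81.4 (72.8 to 90.7) for low-AFP, 109 (101 to 118) for high-AFP and 14.5 (7.499 to 25.3) for HCC. The HCC interval lies below the other 3. Its log2 fold was -2.38 against control and -2.28 against high-AFP. Cluster 0, whose leading genes mark liver sinusoids, held 82.6%, 70.5% and 76.0% of the endothelial cells of control, low-AFP and high-AFP and 7.14% of those of HCC, where cluster 28 (Rspo3 and Vwf among its leading genes, found in larger vessels) held 72.4%. Within cluster 28, Il1a was 35.8 CPM for control (8 UMIs), 2.60 for low-AFP (1 UMI), 24.0 for high-AFP (15 UMIs) and 5.68 (1.55 to 14.6) for HCC (4 UMIs). Within cluster 0 it was 114, 90.3 and 116 CPM in the first 3 libraries, and HCC had 7 cells of it. The endothelial difference thus stands beside a difference in endothelial clusters, and HCC had 98 endothelial cells in all.

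Macrophage Il1a was 73.1 CPM (62.8 to 84.7) for control, 52.1 for low-AFP, 43.0 for high-AFP and 36.8 (31.2 to 43.2) for HCC. The differences stayed under 2-fold. Macrophages held 85.1% of the Il1a UMIs there, against 18.1% for control, 49.4% for low-AFP and 39.5% for high-AFP.

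Il1rn, the natural antagonist of the interleukin-1 receptor, had 6430 UMIs and whole-library levels of 17.3, 32.4, 27.8 and 36.8 CPM (control, low-AFP, high-AFP, HCC). Neutrophils again had the highest named level, 436 CPM for control, 397 for low-AFP, 237 for high-AFP and 341 for HCC. Their intervals overlap, so Il1rn in neutrophils had no HCC excess of the kind Il1b had. An alternative chosen after seeing the data, described under Tnf below, adds an unnamed cluster with raised neutrophil markers. The levels were then 802 (619 to 1023), 730 (585 to 901), 494 (359 to 663) and 536 (480 to 598). The HCC interval then lay below that of control and met those of low-AFP and high-AFP.

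Monocyte Il1rn was 280 CPM (236 to 329) for control, 121 (108 to 136) for low-AFP, 164 (148 to 181) for high-AFP and 74.3 (69.0 to 79.9) for HCC. The log2 fold of HCC was -1.78 against control and -1.04 against high-AFP, and that of low-AFP against control was -1.15. Without the cell of most Il1rn UMIs in each library the last value was -0.94, under the 2-fold limit. Macrophage Il1rn was 175, 180, 122 and 140 CPM, within 2-fold throughout. Cholangiocytes, the bile duct cells, had 8.36 CPM (4 UMIs) for control, 44.4 for low-AFP (33 UMIs), 48.9 for high-AFP (23 UMIs) and 36.5 for HCC (43 cells, no fold taken). The log2 fold against control was 1.57 for low-AFP and 1.68 for high-AFP. NK cells had 31.5 CPM in low-AFP (11 UMIs) against 2.28 in control (1 UMI), a ratio of 13.8 with a counting interval of 2.01 to 595. A single low-AFP cell held 10 of those 11 UMIs, and S100a8 stood at 60.2 CPM in the low-AFP NK class and at 0 UMIs in control and high-AFP. Leaving out the top cells, the log2 fold was -0.39.

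Il18, the precursor of a cytokine that acts on NK and T cells, was the member with the most hepatocyte UMIs, of 6790 in all. Its whole-library level was 18.1, 28.9, 37.0 and 33.9 CPM. Macrophages had 83.4 CPM (72.3 to 95.7) for control, 99.2 for low-AFP, 115 for high-AFP and 169 (157 to 183) for HCC, a ratio of 2.03 between HCC and control before the added 10 CPM and a log2 fold of 0.94 after it. Hepatocytes had 16.0, 17.4, 25.3 and 27.3 CPM, a low level in a large class that made up 56.2%, 38.1%, 43.3% and 6.86% of the Il18 UMIs. Unnamed cluster 23, closest to hepatocytes but of low marker score, is not in these values. It had 329 of its 336 cells in HCC, and Il18 at 77.4 CPM (60.2 to 98.0) on 69 UMIs over all libraries. Thinned hepatocytes had an Il18 UMI in 1.15% to 2.24% of cells, against 0.331% to 1.09% of thinned T cells, a class at 3.15 to 8.06 CPM. Monocytes (66.1, 62.8, 57.7 and 53.9 CPM) and type 1 dendritic cells (72.4, 68.3, 50.9 and 40.6 CPM) were both lowest in HCC, with overlapping intervals in monocytes.

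**Figure D3:**
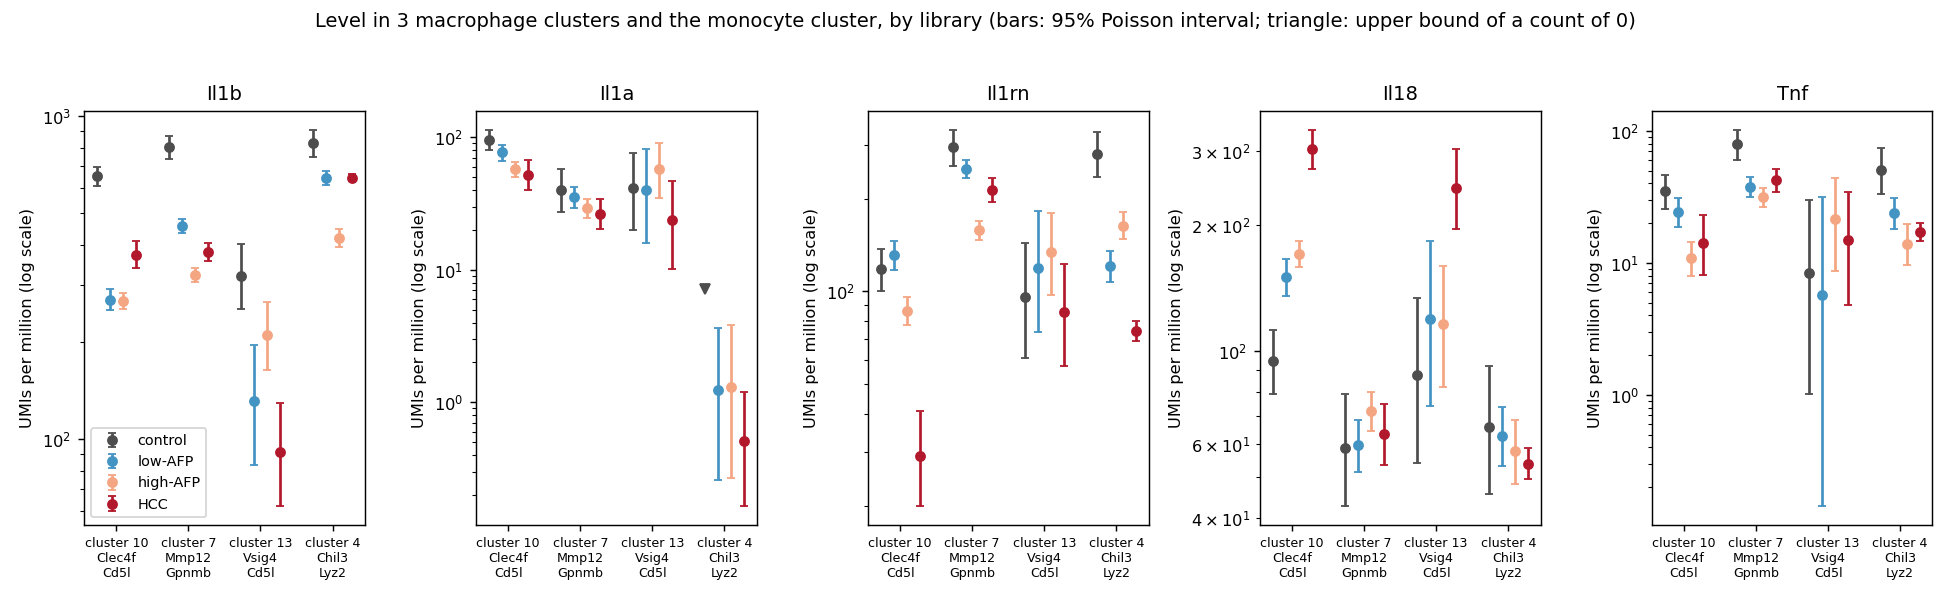
Level of 5 genes in 3 macrophage clusters and the monocyte cluster (x axis, each with its 2 leading genes) by library, in UMIs per 1000000 on a log scale with 95% Poisson intervals. Il18 is highest in HCC in clusters 10 and 13 and level across libraries in cluster 7, and Il1b is highest in control in all 3 macrophage clusters.

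The macrophage class mixed clusters whose shares differed by library. Cluster 10, led by the Kupffer genes Clec4f and Cd5l, held 43.2%, 32.0%, 32.1% and 14.5% of the macrophages (control, low-AFP, high-AFP, HCC). Cluster 7, led by Mmp12 and Gpnmb with Trem2, genes of lipid-associated macrophages, held 17.7%, 45.3%, 45.3% and 35.8%. Cluster 13, of few UMIs per cell (median 1173), held 37.8%, 16.6%, 17.8% and 47.4%. It was led by Vsig4 and Cd5l, with Clec4f also among its leading genes. Cells with Kupffer genes thus lie in both clusters 10 and 13, and the share of cluster 10 alone does not give their share. The control excess of Il1b was present within clusters, at 652, 270, 268 and 373 CPM in cluster 10 and 801, 457, 323 and 380 CPM in cluster 7. Il18 in cluster 10 was 94.4, 150, 170 and 303 CPM in the same order, and in cluster 7 it was 58.8, 59.6, 71.9 and 63.5 CPM. Il1rn was higher in cluster 7 (294, 250, 158 and 214 CPM) than in cluster 10 (118, 131, 86.6 and 29.2 CPM) in each library. Il1a had the opposite order, 95.9, 76.7, 57.2 and 52.1 CPM in cluster 10 and 40.1, 35.2, 29.1 and 26.5 CPM in cluster 7.

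Ptgs2, the inducible cyclooxygenase that makes the precursor of prostaglandin E2, had 2884 UMIs, 2441 of them in HCC. Whole-library levels were 2.12, 3.30, 2.21 and 49.8 CPM. Neutrophils had 667 CPM (494 to 882) for control, 611 (466 to 786) for low-AFP, 695 (511 to 925) for high-AFP and 2126 (2002 to 2255) for HCC. The first 3 overlap and HCC lies above them. A median neutrophil held 1, 1, 1 and 5 Ptgs2 UMIs. After thinning, 43.2% (27.1 to 60.5), 33.3% (19.6 to 49.5), 34.3% (19.1 to 52.2) and 63.1% (55.8 to 70.0) had one, against 54.1%, 54.8%, 51.4% and 74.9% unthinned and at most 0.158% of thinned hepatocytes.

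Ptgs2 was also higher in HCC in other myeloid classes. Monocytes had 46.6 CPM for control, 25.4 for low-AFP, 13.5 for high-AFP and 75.3 for HCC, a log2 fold of 1.86 for HCC against high-AFP and of -1.27 for high-AFP against control. Type 2 dendritic cells had 6.69 CPM (3 UMIs), 3.43 (4 UMIs), 1.42 (2 UMIs) and 57.3 (255 UMIs). HCC was 8.57 times control with a counting interval of 2.90 to 41.8, and 40.3 times high-AFP with an interval of 11.03 to 334. Macrophages had 3.29, 2.30, 2.99 and 21.3 CPM, with log2 folds of 1.23 against control and 1.27 against high-AFP that were lost at a lower cluster resolution and with doublets kept. The summed dissociation and immediate early genes were 5440, 4481, 4115 and 8822 CPM in monocytes and 5769, 4587, 4228 and 8926 CPM in type 2 dendritic cells, and their part in the Ptgs2 levels was not tested.

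Osm, which encodes oncostatin M, a cytokine of the interleukin-6 family that acts on liver stromal cells and hepatocytes, had 1591 UMIs and whole-library levels of 2.03, 3.34, 2.14 and 23.6 CPM. Over all libraries the mast and basophil class had the highest level, 920 CPM (708 to 1175), on 64 UMIs in 31 cells. Neutrophils were next at 535 CPM (484 to 589). By library, neutrophils had 136 CPM (65.3 to 250) for control, 285 (189 to 412) for low-AFP, 74.0 (24.0 to 173) for high-AFP and 698 (628 to 773) for HCC. These rest on 10, 28, 5 and 364 UMIs. HCC stands above the rest, and control overlaps both other libraries. Within HCC, Osm was 723, 964 and 196 CPM in neutrophil clusters 39, 40 and 42, so the neutrophil clusters differed among themselves. Monocytes had 62.2, 30.0, 17.9 and 50.1 CPM, lowest in high-AFP, with log2 folds of -1.37 for high-AFP against control and 1.11 for HCC against high-AFP.

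Tnf, the central pro-inflammatory cytokine of macrophages and T cells, had 2327 UMIs and whole-library levels of 5.75, 7.16, 4.87 and 26.7 CPM. Neutrophils had 150, 132, 148 and 303 CPM, on 11, 13, 10 and 158 UMIs, and the HCC interval (257 to 354) overlaps those of control (74.8 to 268) and high-AFP (71.0 to 272). When an unnamed cluster of 57 cells with raised neutrophil markers was counted as neutrophils, an alternative chosen after seeing the data, the levels were 148 (76.5 to 259), 193 (122 to 290), 202 (120 to 319) and 517 (461 to 577), and the HCC interval then lay above the others. T cells had 28.3 CPM for control, 14.9 for low-AFP, 5.58 for high-AFP and 29.7 for HCC. A single control T cell held 12 of 39 UMIs and a single low-AFP T cell 14 of 23, so the low-AFP level rests largely on 1 cell. The log2 fold was -1.30 for high-AFP against control and 1.35 for HCC against high-AFP. Without the top cells the values were -1.046 and 1.425. T cell cluster 8 held 97.7%, 90.9% and 94.1% of the T cells of the first 3 libraries and 0.898% of those of HCC, which lay in clusters 5 (57.0%) and 9 (40.2%). Within cluster 8, Tnf was 27.7 CPM for control, 6.62 for low-AFP and 6.06 for high-AFP.

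Macrophage Tnf was 46.0, 31.1, 21.8 and 30.6 CPM, within 2-fold after the added 10 CPM in each of the 5 comparisons. Type 2 dendritic cells had 26.7, 11.1, 4.98 and 34.8 CPM, with log2 folds of -1.30 for high-AFP against control and 1.58 for HCC against high-AFP. Monocytes had 50.5, 23.7, 13.98 and 17.2 CPM, but 1 control monocyte held 15 of the 26 UMIs. Leaving out the top cells, the monocyte log2 fold went from -1.34 to -0.53 for high-AFP and from -1.15 to -0.29 for HCC against control.

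Il6, the inducer of the hepatic acute phase response, had 157 UMIs in 26558 cells, too few for any fold. Whole-library levels were 0.474, 0.156, 0.418 and 1.98 CPM, from 21, 9, 30 and 97 UMIs. The mast and basophil class, 31 cells in 1 cluster, held 57 of the 157 UMIs, 10 in high-AFP and 47 in HCC, and all of them in 6 cells. It stood at 819 CPM there. All 5 HCC cells of the class with an Il6 UMI also had an Osm UMI. Monocytes and macrophages held most of the others, with 36 UMIs in HCC monocytes and 14 in control macrophages.

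**Figure D4:**
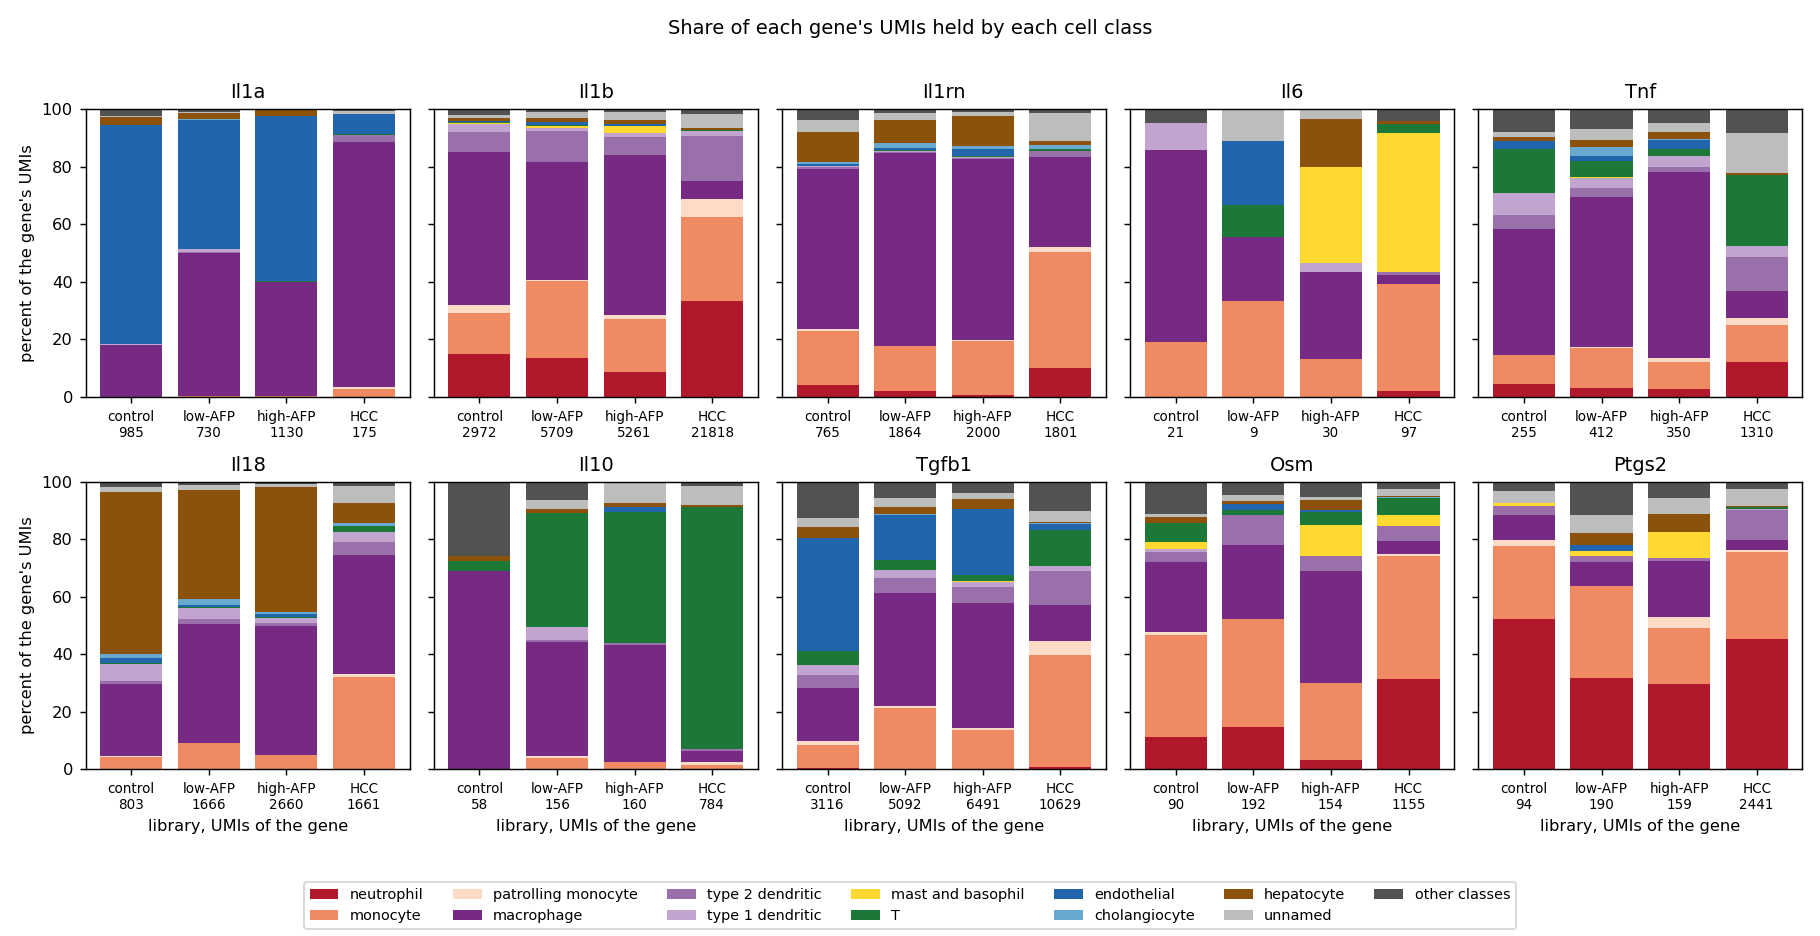
Share of the UMIs of each gene held by each cell class (stacked bars, percent) in each library, with the number of UMIs of the gene under each bar. In HCC the bars of Il1b, Ptgs2 and Osm are mostly neutrophil and monocyte, that of Il10 mostly T cell, and the endothelial share of Il1a and the hepatocyte share of Il18 are small.

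Il10, which encodes the cytokine that limits macrophage activation, had 1158 UMIs and whole-library levels of 1.31, 2.71, 2.23 and 16.0 CPM. T cells had 1.45 CPM (2 UMIs) for control, 40.1 (62 UMIs) for low-AFP, 45.3 (73 UMIs) for high-AFP and 60.9 (658 UMIs) for HCC. The control interval (0.176 to 5.25) lies far below the other 3. The ratio to control was 27.6 (7.33 to 233) for low-AFP, 31.2 (8.32 to 262) for high-AFP and 41.9 (11.6 to 347) for HCC. A single low-AFP T cell held 26 of the 62 UMIs, and the log2 fold was 2.13 with it and 1.63 without the top cells.

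Inside T cell cluster 8, Il10 was also lower in control (1.496 CPM) than in low-AFP (16.2) and high-AFP (31.0). HCC had 15.5 CPM there in only 22 cells, fewer than the minimum used for folds. No difference between HCC and control is read from that cluster. Cluster 5, with 8 control cells, had 213 CPM for low-AFP (30 cells), 227 for high-AFP (24 cells) and 79.7 for HCC (1396 cells). Control, low-AFP and high-AFP had fewer cells there than the minimum for folds, so no difference from HCC is read. No cluster level is given without the low-AFP T cell that held 26 of the 62 Il10 UMIs. Ifng, which encodes interferon gamma, was looked at in T cells with an Il10 UMI. Of these, 62.5% of 16 for low-AFP, 65.2% of 23 for high-AFP and 63.6% of 195 for HCC also had an Ifng UMI. Among T cells without Il10 the shares were 17.1%, 15.8% and 30.3%. The Il10 cells were deeper, with median UMI counts of 5814, 4292 and 5122 against 3994, 3383 and 4132, and depth was not matched here. Foxp3, the factor of regulatory T cells, was found in 0% of 16 (0 to 20.6), 0% of 23 (0 to 14.8) and 1.03% of 195 (0.125 to 3.66) cells with Il10. Of those without, 4.78% (2.81 to 7.54), 4.11% (2.45 to 6.42) and 2.97% (2.31 to 3.76) had it. The intervals overlap in each library, so no difference in Foxp3 is read from them.

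Macrophage Il10 was 16.4 CPM (11.7 to 22.4) for control, 8.95 for low-AFP, 6.27 for high-AFP and 7.66 for HCC, the control library having the highest level and no pair passing 2-fold after the added 10 CPM. The main holder of Il10 UMIs was thus the macrophage class in control (69.0%, against 3.45% in T cells) and the T cell class in HCC (83.9%, against 3.95% in macrophages).

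Tgfb1, the ligand that drives stellate cell activation and matrix formation, had 25328 UMIs and was found across most immune classes and endothelial cells. Whole-library levels were 70.3, 88.4, 90.3 and 217 CPM. Monocytes had 486, 443, 381 and 425 CPM, macrophages 239, 290, 273 and 329, endothelial cells 192, 199, 251 and 278, and T cells 116, 117, 96.1 and 124. No Tgfb1 pair passed 2-fold in any of the 5 comparisons described below. Hepatocytes had 3.51 to 9.10 CPM. Endothelial cells held 39.3% of Tgfb1 UMIs in control and 2.16% in HCC, and monocytes 8.02% and 39.2%.

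**Figure D5:**
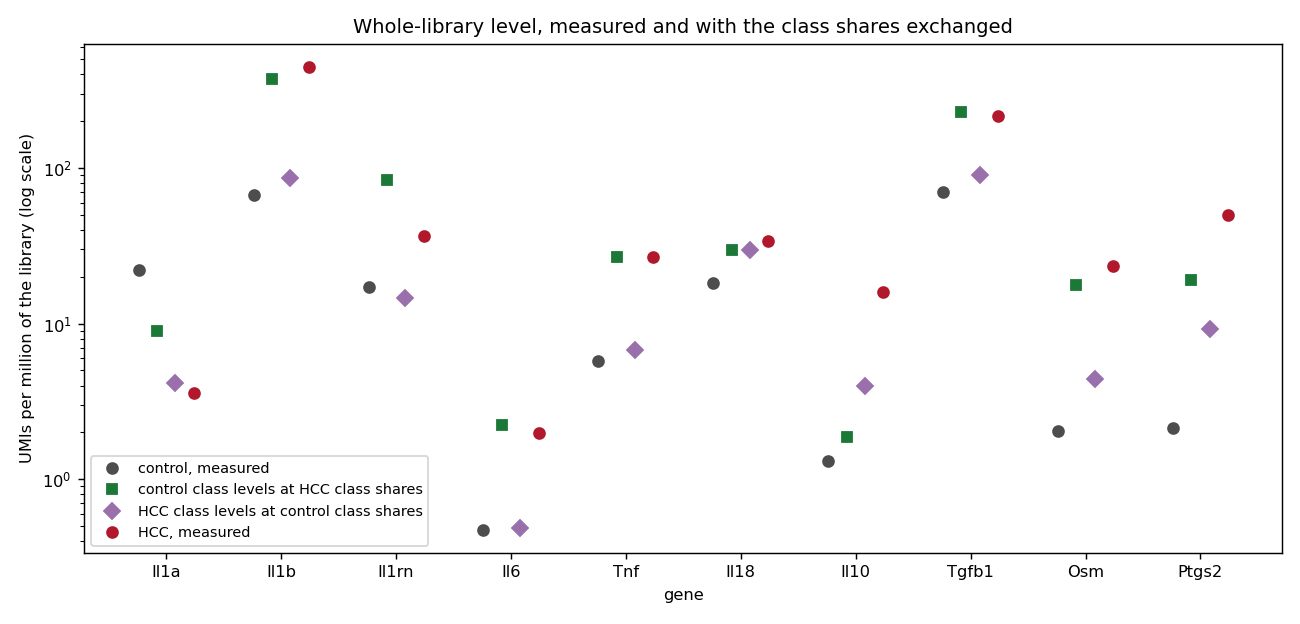
Whole-library level of each gene in control and HCC as measured (circles), with control class levels weighted by the class shares of HCC (squares), and with HCC class levels weighted by the class shares of control (diamonds), in UMIs per 1000000 on a log scale. For Il1b, Tnf and Tgfb1 the squares lie near the HCC value, and for Il10 and Il1a they do not.

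Because class shares differed so much between control and HCC, whole-library levels were also computed with the shares exchanged. Control class levels at HCC shares gave 374 CPM for Il1b, against 445 measured in HCC and 67.1 in control. For Tnf they gave 26.8 against 26.7 measured in HCC, and for Tgfb1 230 against 217. For Ptgs2 they gave 19.2 against 49.8, and HCC class levels at control shares gave 9.25 against 2.12 measured in control. For Il10 control levels at HCC shares gave 1.86 against 16.0. For Il1rn they gave 83.7, above both the 36.8 measured in HCC and the 17.3 in control. For Il1a control levels at HCC shares gave 8.99 and HCC levels at control shares 4.14, both between the 3.57 measured in HCC and the 22.2 in control. These are weighted sums of the same data, and small classes such as control neutrophils enter them with their counting error. The 69 control monocytes enter at the HCC share of 20.02%. A single cell held 15 of their 26 Tnf UMIs, and a single cell held 130 of their 425 Il1b UMIs. The sums were not recomputed without such cells, so the nearness for Tnf and Il1b rests partly on them.

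Across the classes with at least 50 cells in both libraries, a gene and class pair was counted when either library had at least 10 CPM, and called when the log2 ratio after adding 10 CPM to both passed 2-fold. Neutrophils, too few outside HCC, are not in these counts, and 9 of the 10 genes gave pairs, Il6 none. The comparisons share libraries and are not independent.

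Low-AFP differed from control mainly in Il10 of T cells and Il1rn of cholangiocytes, both higher, and Il1b of type 1 dendritic cells, lower (log2 fold -1.34). Of 41 pairs, 4 were higher and 2 lower, against 0.876% higher and 1.38% lower among 83866 pairs of all genes. The other higher pairs were Il1rn in NK cells and Il1b in endothelial cells (17.2 against 2.51 CPM, with 19 of the 69 low-AFP UMIs in 1 cell), and the other lower pair was Il1rn in monocytes. The median log2 fold was -0.06 for the 10 genes and -0.03 for all pairs. Without the cell of most UMIs, 1 pair was lower, and endothelial Il1b had a log2 fold of 0.92.

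High-AFP had lower Tnf than control in T cells, type 2 dendritic cells and monocytes, lower Osm and Ptgs2 in monocytes and lower Il1b in macrophages. Il10 in T cells and Il1rn in cholangiocytes were higher. Of 35 pairs, 2 were higher and 6 lower, against 1.15% and 1.48% of 83980 pairs. The median was -0.44 for the 10 genes and -0.05 for all pairs. The dissociation and immediate early list was lower as well, with 13 of 148 pairs lower, 4 higher and a median of -0.45, and its part in these values was not tested. At a cluster resolution of 0.5, 2 pairs were lower in place of 6. Monocyte Osm (-0.95) and Ptgs2 (-0.86) then missed 2-fold, as did monocyte Tnf, and the type 2 dendritic pair gave no value.

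High-AFP against low-AFP had no higher pair and 4 lower pairs of 38, against 0.56% higher and 0.419% lower among 82528 pairs. The 4 were Il1b in type 2 dendritic cells (log2 fold -1.11) and in endothelial cells (-1.04), Il1rn in NK cells and Tnf in cholangiocytes (1 UMI against 13). The ratio of the last was 0.122 with a counting interval of 0.00286 to 0.810. Only Il1b in type 2 dendritic cells stayed past 2-fold without the top cells. The median was -0.24 for the 10 genes and -0.02 for all pairs.

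HCC against control had higher Il10 in T cells, Ptgs2 in type 2 dendritic cells and macrophages and Il1b in hepatocytes, and lower Il1a in endothelial cells, Il1rn in monocytes and Tnf in monocytes. Of 43 pairs, 4 were higher and 3 lower, against 2.8% and 5.66% of 82674 pairs. The median was 0.20 for the 10 genes and -0.08 for all pairs. The Ptgs2 pair of type 2 dendritic cells gave no value at resolution 0.5 or with doublets kept. The hepatocyte value of Il1b was 22.7 against 1.06 CPM, and the neutrophil genes S100a8 and S100a9 stood at 41.9 and 59.6 CPM in HCC hepatocytes. A single HCC hepatocyte held 36 of the 95 Il1b UMIs. The log2 fold was 1.565, and 1.134 without the top cells.

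HCC against high-AFP gave the most calls, 11 higher and 2 lower of 38, against 1.77% and 4.09% of 72663 pairs. The higher pairs were Ptgs2 in type 2 dendritic cells, monocytes and macrophages, Il1b in type 2 and type 1 dendritic cells, hepatocytes and B cells, Tnf in type 2 dendritic, T and NK cells, and Osm in monocytes. The smallest counts among them were Il1b in B cells, 32 UMIs against 1 (ratio 10.3, interval 1.72 to 420), whose log2 fold was 1.00 and fell under 2-fold without the top cells (0.70) and under median-ratio scaling, and Tnf in NK cells, 35 against 3 (ratio 4.23, interval 1.33 to 21.5). The lower pairs were Il1a in endothelial cells and Il1rn in monocytes. At resolution 0.5 monocyte Osm (0.99) and Il1rn missed 2-fold, and the type 2 dendritic pairs gave no value. The median was 0.37 for the 10 genes and -0.02 for all pairs. In the same comparison 60 of 138 pairs of the dissociation and immediate early list were higher and 1 lower (median 0.86), and in HCC against control 57 of 154 were higher and 10 lower. The part of that list in the HCC values was not tested.

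The receptors and partners of these genes were described from 12 lists of 107 genes in all. Beside the counts given here for HCC against control, 2.8% of all pairs were higher and 5.66% lower. Of the interleukin-1 receptors, Il1r1, the signalling receptor, was highest in mesenchymal cells (104 CPM) and next in endothelial cells (73.0), with hepatocytes at 13.97. The decoy receptor Il1r2 was highest in neutrophils (393), and the shared subunit Il1rap in neutrophils (139) and hepatocytes (126). Of 62 pairs of the list, 1 (1.61%) was higher and 2 (3.23%) lower in HCC against control, both under the shares of all pairs. Of the inflammasome genes, the sensor Nlrp3 was highest in neutrophils (360), and the adaptor Pycard (318) and the protease Casp1 (104) in monocytes. Nlrp3 in macrophages was 32.6 CPM in HCC against 92.0 in control, a log2 fold of -1.26, and 2 of 62 pairs (3.23%) were higher and 2 lower, the first near and the second under the share of all pairs.

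For the interleukin-6 family, the ligand-binding receptor Il6ra was highest in patrolling monocytes (334 CPM), while the shared subunit Il6st (1859), Lifr (1121) and the oncostatin M receptor Osmr (166) were highest in endothelial cells. In macrophages Lifr was lower than control in low-AFP (-1.58), high-AFP (-1.38) and HCC (-1.76), and Il6st likewise (-1.04, -1.09 and -1.24). Summed endothelial markers in macrophages were also highest in control, at 786 CPM against 299, 314 and 185, with 10 of 10 markers detected in each, and their part was not tested. The feedback gene Socs3 was 242 CPM in HCC monocytes and 75.8 in control ones (1.56). In all, 7 of 66 pairs (10.6%) were higher and 6 (9.09%) lower in HCC against control, against 2.8% and 5.66% of all pairs. All 7 higher pairs were Socs3, which is also in the dissociation and immediate early list, and the lower ones were Lifr, Il6st and Jak1, in endothelial cells among other classes.

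For tumour necrosis factor, the receptor Tnfrsf1a was highest in neutrophils (396 CPM) and stood at 282 in endothelial cells, and Tnfrsf1b was highest in patrolling monocytes (434). Of 94 pairs, 4 (4.26%) were higher and 0 lower in HCC against control by the 2-fold rule, with no test, against 2.8% and 5.66% of all pairs. Of the 4, 3 were Ltb, the lymphocyte gene for lymphotoxin beta, at 15.7 against 2.51 CPM in endothelial cells, 11.3 against 0.319 in hepatocytes and 16.0 against 1.94 in monocytes. Summed T cell markers in these classes were 91.9 against 10.8, 69.9 against 2.83 and 65.7 against 3.89 CPM, with 9, 9 and 10 of 10 markers detected in HCC and 9, 10 and 1 in control, and their part was not tested. The other pair was Tradd in hepatocytes. For interleukin-18, Il18r1 was highest in NK cells (111) and next in T cells (69.2), Il18rap in neutrophils (184) and the binding protein Il18bp, which neutralises the cytokine, in macrophages (567). For interleukin-10, Il10ra was highest in patrolling monocytes (272) and Il10rb in macrophages (215). None of the 17 receptor pairs of interleukin-10 passed 2-fold in HCC against control, and of 8 interleukin-18 pairs 2 were higher and 1 lower.

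For transforming growth factor beta, the receptors Tgfbr1 and Tgfbr2 were highest in macrophages (231 CPM) and endothelial cells (258), the co-receptor Eng (1462) and the latency protein Ltbp4 (518) in endothelial cells, and the induced matrix gene Tgfbi in mesenchymal cells (1418). Of 70 pairs, 4 (5.71%) were higher and 4 (5.71%) lower in HCC against control, and the lower share is that of all pairs (5.66%). Of the prostanoid and leukotriene genes, the constitutive cyclooxygenase Ptgs1 (399) and the degrading enzyme Hpgd (557) were highest in macrophages and the 5-lipoxygenase partner Alox5ap in neutrophils (1599). Ptges, the inducible prostaglandin E synthase, reached only 6.49 CPM in its highest class. Hpgd in macrophages was 462 CPM in HCC and 985 in control (-1.08), and the leukotriene synthase Ltc4s in monocytes was 2.04 against 103 (-3.23). Of 59 pairs, 0 were higher and 7 (11.9%) lower by the 2-fold rule, with no test, against 5.66% of all pairs. The 7 came from 2 genes, Hpgd in macrophages, endothelial, T, NK and type 2 dendritic cells and Ltc4s in monocytes and endothelial cells. The prostaglandin E receptor Ptger4 was highest in mature dendritic cells (145) and Ptger2 in mesenchymal cells (49.5), and 1 of 11 pairs was higher and 1 lower.

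Among the NF-kappaB feedback genes, the inhibitor Nfkbia was highest in neutrophils (1633 CPM), as was the mRNA decay factor Zfp36 (2678) of the decay list. The NF-kappaB list had 7 of 108 pairs (6.48%) higher and 0 lower in HCC against control, against 2.8% and 5.66% of all pairs. In HCC against high-AFP 8 of 97 (8.25%) were higher and 0 lower, against 1.77% and 4.09%, by the 2-fold rule with no test. Nfkbiz, a regulator of secondary response genes, was lower in high-AFP than in control in macrophages (63.4 against 177 CPM, -1.35) and in monocytes (69.9 against 163 CPM, -1.12). Of the decay list, 1 of 58 pairs was higher and 2 lower in HCC against control. Over the other 3 comparisons that do not involve HCC, the 11 lists other than the dissociation list had at most 3 higher and 5 lower pairs each. The 3 were of 92 pairs (3.26%) of the tumour necrosis factor list in low-AFP against control, against 0.876% of all pairs. The 5 were of 60 pairs (8.33%) of the prostanoid and leukotriene list in high-AFP against control, against 1.48% of all pairs. Both are above the share of all pairs, by the 2-fold rule with no test.

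The genes whose levels were most like those of each member were ranked by Pearson r over 45 class and library sums, which share libraries and depth, as a description. Only sums of at least 50 cells entered. Neutrophils thus entered from HCC only and the mast and basophil class not at all, which limits the ranking for Il1b, Ptgs2 and Osm. For Il1b they were Tlr13 (0.939), Nlrp3 (0.935) and Gm34084 (0.932). For Il1a they were Mrc1 (0.942), Epor (0.919) and Mertk (0.896). Il1rn was most like Pgd (0.883), Cd14 (0.867) and Tnfaip2 (0.852), and Il18 most like Rab32 (0.872), Tbxas1 (0.830) and Tmem141 (0.816). Ptgs2 and Osm shared 2 of their 3 genes, Slc7a11 (0.922 and 0.860) and Slc16a3 (0.839 and 0.824), with Lilra6 (0.840) for Ptgs2 and Lilrb4a (0.850) for Osm. Tnf was most like Mkrn1 (0.852), Cd44 (0.846) and Pik3r5 (0.820), and Tgfb1 most like Casp1 (0.939), Calhm2 (0.927) and Msn (0.926). Il10 had the weakest likeness, with Cd163l1 (0.725), Il21 (0.723) and Penk (0.669). Il6, under 200 UMIs, was not ranked.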

How the data were processed

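Single mouse liver cells were measured in 4 libraries made with the 10x Genomics 3' kit and sequenced on an Illumina instrument with paired reads of 100 bases, per the labels. The deposited matrices hold whole-number UMI counts per gene and barcode. Cell Ranger (3.0.2 per the file headers), Seurat 3, R 3.0 and mm9 are listed in the submitters' processing notes. Since no coordinate comes from the files, the build enters no value.

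Barcodes passed the limits of genes, UMIs and mitochondrial share given above. Scrublet's automatic thresholds in scanpy 1.11.5 marked under 0.5% of barcodes in each library, so the 323, 230, 575 and 513 barcodes of highest score (control, low-AFP, high-AFP, HCC) were taken out, the number following from 0.8% per 1000 barcodes. Clusters came from log values after scaling each cell to 10000 UMIs, with 2000 variable genes without the 10 genes and their pathway genes, 30 components, 15 neighbours and the Leiden method of leidenalg 0.10.2 at resolution 1. Libraries were not integrated. Mixed clusters were split again by a rule set after the first clusters were seen. This gave 26558 cells in 49 clusters, of which 45 took 1 of 18 names and 4, with 757 cells, stayed unnamed. Intervals came from scipy 1.17.1.

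Folds are log2 of the CPM ratio after adding 10 CPM to both, in classes with at least 50 cells in both libraries. A limit for 0 UMIs uses 3 counts. The call rule was tested on simulated counts. Shares of cells were taken after thinning each cell to 1000 UMIs. The genes and lists were chosen with earlier results of these data known. Genes other than the 10 were named by rule: in each pathway list those of highest class level and the 2 to 4 with the largest folds in macrophages or monocytes, and the 3 most like each of the 10 genes with at least 200 UMIs. Alternatives varied the cell filters, doublets, cluster resolution, added CPM, CPM minimum, scaling, shared barcodes, the top cell and the thinning depth.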

Additional observations from a re-analysis of the deposited data

How the results depend on the processing

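Of 38 called gene and class pairs, 17 were called under all 9 alternatives and 21 were lost under at least 1. Of these, 2 changed sign, both Il1rn in NK cells without the cell of most UMIs, at log2 folds of -0.39 for low-AFP against control and 0.35 for high-AFP against low-AFP. Of the 90 recomputed counts of called pairs, 79 were within 1.5 times of the main count. Without the top cell, lower pairs went from 2 to 1 in low-AFP against control and from 4 to 1 in high-AFP against low-AFP. With 1 CPM added in place of 10, they were 5 and 7, and higher pairs in HCC against control were 8 in place of 4. At resolution 0.5, high-AFP against control had 2 lower pairs in place of 6, HCC against control 7 higher in place of 4, and HCC against high-AFP 1 lower in place of 2. With doublets kept, higher pairs were 1 in place of 0 in high-AFP against low-AFP, 7 in place of 4 in HCC against control and 18 in place of 11 in HCC against high-AFP. With doublets kept, neutrophils numbered 46, 59, 60 and 283, so all libraries but control passed the minimum of 50 cells. Mature dendritic cells passed it in high-AFP (53) and HCC (91). Measured pairs of HCC against high-AFP rose from 38 to 54. Its added calls included Osm, Ptgs2 and Tnf, but not Il1b, in neutrophils, and pairs of mature dendritic cells. The pairs added in HCC against control came from neither class, and their cause was not tested. A mitochondrial limit of 15%, limits of 500 genes and 1000 UMIs, removal of shared barcodes, median-ratio scaling and no CPM minimum left all 10 counts within 1.5 times. Levels in the leading class or in neutrophils moved beyond their counting interval in 32 of 280 recomputed values, and shares of UMIs in 40 of 200. Of the 32, 7 were neutrophil levels with the unnamed cluster of raised neutrophil markers added. Shares of cells with a UMI were the least stable. At 2000 UMIs or without thinning, 46 moved beyond their interval and 29 did not. No paired analysis was possible because each group is 1 library. Depth limits Il6 (157 UMIs) and all classes under 50 cells, neutrophils outside HCC among them.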

Other observations

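A cluster of 57 cells (4 for control, 10 for low-AFP, 10 for high-AFP and 33 for HCC), led by Ccrl2, Acod1 and Cxcl2, had all 8 neutrophil markers raised but stayed unnamed by the naming rule. It held Il1b at 7306 CPM (6853 to 7782), Il1rn at 1929 (1699 to 2180), Tnf at 1308 (1121 to 1519) and Ptgs2 at 1029 (863 to 1217), and no UMI of Il6, Il10 or Il18. Its Il1rn and Tnf levels were above those of the neutrophil class over all libraries (348 and 252 CPM), and its Il1b and Ptgs2 levels were below them (11760 and 1662 CPM). With these cells counted as neutrophils, an alternative chosen after seeing the data, neutrophil Il1b was 5715, 7052, 6588 and 13290 CPM (control, low-AFP, high-AFP, HCC), Ptgs2 was 654, 605, 629 and 2020, Il1rn was 802, 730, 494 and 536, and Tnf was 148, 193, 202 and 517.

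Il4, a cytokine of type 2 helper and NKT cells, was measured beside Il10 in the T cell class. It stood at 26.9 CPM (37 UMIs) for control, 7.12 (11 UMIs) for low-AFP, 2.48 (4 UMIs) for high-AFP and 0.833 (9 UMIs) for HCC. The 8 HCC cells of the mast and basophil class held 6 UMIs of Il4 and 5 of Il13.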
